A study of Mus musculus with 4 samples.

Results

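Lfng, Mfng, Rfng, Pofut1 and Poglut1 encode enzymes that start sugar chains on Notch receptors or extend the fucose chains. The 5 genes were taken by symbol, as the 3 fringe genes and the transferases for O-fucose and O-glucose, and all 5 were found among the 24391 genes of the count table. RNA-Seq had been measured in 4 libraries of Beko cells, a single mouse progenitor T-cell line in which Notch signals constitutively. In 2 libraries, called GSI here, the cells had been in DAPT for 48 h. DAPT is a γ-secretase inhibitor that prevents the release of NICD1, the active fragment of Notch1. In the other 2, called washout, the cells had been in DAPT for the same 48 h and had then grown for 24 h more in medium without it. All groups compared had therefore seen the inhibitor, whose dose is 10 mg/ml in the labels and 10 μg/ml in the study's methods. No library of cells washed and grown on without earlier inhibitor was analysed here, so the return of Notch activity and the added wash and culture time cannot be told apart.

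The extracellular part of Notch is a row of EGF-like repeats, and many of these carry sugars that are added in the endoplasmic reticulum and the Golgi. POFUT1 attaches O-fucose and POGLUT1 attaches O-glucose, and both are needed for a receptor that can signal fully. Fringe proteins lengthen the O-fucose by a GlcNAc, which changes how strongly Delta-like and Jagged ligands activate the receptor. In the thymus, Lfng is known for helping T-cell progenitors to respond to Delta-like ligands on the stroma.

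Upon washout, the 3 fringe genes went different ways. Mfng rose about 2-fold and Rfng did not pass the test. Lfng, close to the limit of detection, was lower with an adjusted p of 0.0167 in edgeR and 0.0696 in DESeq2, and it entered the test only because its GSI libraries were high enough. Of the members that start the chains, Poglut1 rose by less than 2-fold and Pofut1 did not pass the test. Counts were compared by edgeR's quasi-likelihood test over the 12266 genes with enough reads, with p-values adjusted by the Benjamini-Hochberg method. A gene is said to have risen or fallen where the adjusted p-value was below 0.05. It is past both thresholds where, in addition, the log2 fold change (washout minus GSI) lay above 1 or below -1. By the adjusted p-value, 2 members rose, against 27.0% of all genes tested, and 1 (Lfng) fell, against 25.4%. Past both thresholds was 1 member in each direction, against 7.74% of the genes tested that were higher and 11.7% that were lower, or 19.5% in all. Since 52.5% of all genes passed the adjusted p-value in one direction or the other, 3 members of 5 is near the background. Nothing in the labels says that the libraries of a group came from separate cultures, so the p-values measure only the spread between these libraries.

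The libraries held between 13716199 and 36364200 counted reads, and replicate 1 was the deeper library in both groups. The 7 Notch response genes used as a check were Hes1, Hey1, Heyl, Dtx1, Nrarp, Il2ra and Ptcra. All were higher upon washout past both thresholds, beside 7.74% of all genes tested, with log2 fold changes from 1.31 (Nrarp) to 3.47 (Hey1). They were chosen with earlier results of these data known, so their rise is no independent check. For Hes1, whose GSI libraries were at 21.8 and 7.67 CPM, the adjusted p-value was 0.0282 in edgeR and 0.0732 in DESeq2. All 11 T-cell progenitor markers had reads in these cells, with a summed level of 5867 and 6340 in the GSI libraries and of 6065 and 5914 in the washout libraries. Of these markers 3 rose, beside 27.0% of all genes tested, with log2 fold changes of 2.37 (Ptcra, also a check gene), 0.86 (Cd3g) and 0.64 (Rag2). The 4 that fell, beside 25.4% of all genes tested, were Gata3 (-1.67), Tcf7 (-0.87), Bcl11b (-0.72) and Thy1 (-0.58). Levels are given as CPM, the reads of a gene relative to the library total scaled by edgeR's TMM factor. The B-cell markers summed to at most 0.959 CPM in any library, with Pax5, Ebf1 and Ms4a1 at 0.

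The upstream sequences of Lfng and Poglut1 are shown because they hold the hexamer TGGGAA, the core of the site read by RBPJ, the DNA-binding partner of NICD1. They were taken from the RefSeq promoter table, which is on GRCm38.p6 and lists 4 of the 5 members (Lfng, Rfng, Pofut1 and Poglut1). Each window was also found once, base for base, in mm9, the build of the counts. The sequences printed run from 250 to 11 bases before the start of transcription, 5′ to 3′ on the strand of the gene, at chr5:141083045-141083284 (mm9, plus strand) for Lfng and at chr16:38550349-38550588 (mm9, minus strand) for Poglut1. Capitals mark TGGGAA or its reverse complement TTCCCA.
Lfng: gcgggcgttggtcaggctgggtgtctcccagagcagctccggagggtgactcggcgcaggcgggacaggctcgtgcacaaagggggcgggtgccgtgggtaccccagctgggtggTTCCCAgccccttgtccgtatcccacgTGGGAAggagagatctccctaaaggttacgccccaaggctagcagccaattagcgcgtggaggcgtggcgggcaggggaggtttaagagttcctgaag
Poglut1: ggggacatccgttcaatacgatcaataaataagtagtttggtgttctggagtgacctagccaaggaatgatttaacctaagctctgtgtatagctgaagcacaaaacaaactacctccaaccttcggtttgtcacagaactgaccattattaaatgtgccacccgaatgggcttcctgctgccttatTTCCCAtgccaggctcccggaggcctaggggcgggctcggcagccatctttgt
Lfng held TTCCCA from 135 to 130 and TGGGAA from 108 to 103 bases before the start, and Poglut1 held TTCCCA from 63 to 58 bases before it. Across the 32851 promoters of the table, 25.6% have TGGGAA on either strand within their 300 bases, which run from 250 bases before to 50 bases after the start. TGAGAA, the form of the site with a changed base, is found on either strand in 20.2% of promoters and had no match in these 4. The windows of Rfng and Pofut1 had no match to either hexamer. GGGCGG, the core of the GC box read by SP factors, occurs on either strand in 35.7% of promoters and was found 6 times in the window of Rfng, with overlapping matches, 5 times in Pofut1, 2 times in Poglut1 and 1 time in Lfng. These matches describe the letters of the windows. RBPJ binding at these genes was not analysed here.

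Lfng, lunatic fringe, lies on chromosome 5 from 141083295 to 141091497 (mm9, plus strand), with 2282 bases of exon. It had 24 and 17 reads in GSI replicates 1 and 2, and 4 reads in each washout library. In CPM, the level was 0.750 and 1.16 in GSI, and 0.117 and 0.298 upon washout. Both GSI libraries lay above both washout libraries. The exact Poisson intervals of the level, which cover counting error only, ran in CPM from 0.480 to 1.12 and from 0.678 to 1.86 in GSI, and from 0.0320 to 0.301 and 0.0811 to 0.762 upon washout. The interval of washout replicate 2 overlaps those of both GSI libraries, and that of washout replicate 1 overlaps neither. Lfng had a log2 fold change of -2.36 (SE 0.588, 95% interval -3.78 to -0.93, n = 2 libraries per group, adjusted p = 0.0167 in edgeR). The gene entered the test only through the GSI libraries, since both of them and 0 of the washout libraries were above the filter, which lay at 0.453 CPM of the unscaled total. In DESeq2 the adjusted p-value of Lfng was 0.0696. Leaving out GSI replicate 2 took its log2 fold change to -2.05 (adjusted p = 0.0742 in edgeR), and leaving out washout replicate 1 took it to -1.61 (adjusted p = 0.169).

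In bulk RNA, fewer cells that express Lfng and less Lfng RNA per cell cannot be told apart. Of the 11 T-cell progenitor markers, 4 fell and 3 rose, beside 25.4% and 27.0% of all genes tested. Markers of other lineages moved in the same direction as Lfng. The 9 myeloid and mast cell markers summed in CPM to 323 and 205 in GSI and to 51.2 and 35.4 upon washout, and all 3 that could be tested (Itgam, Cpa3 and Kit) fell, while Elane, Lyz2, Ms4a2 and Fcer1a were at 0 in every library. The 5 erythroid markers summed to 23.8 and 21.4 CPM against 11.2 and 10.8 CPM, and the 3 tested (Gata1, Klf1 and Epor) fell, with Hbb-b1 and Hba-a1 at 0. Both counts stand beside 25.4% of all genes tested that fell. Klf1 had 45 and 19 reads in GSI and 22 and 7 upon washout, with an adjusted p of 0.0325 in edgeR and 0.213 in DESeq2. The part of these markers in the result for Lfng was not tested.

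Mfng, manic fringe, lies on chromosome 15 from 78586312 to 78603905 (mm9, minus strand), with 2839 bases of exon. GSI replicates 1 and 2 held 1434 and 716 reads of Mfng, and washout replicates 1 and 2 held 3109 and 1311. The GSI libraries were thus at 44.8 and 49.1 CPM and the washout libraries at 91.3 and 97.5 CPM, so the lower washout library was well above the higher GSI library. The mean level upon washout was 2.01 times that in GSI. On the log2 scale Mfng rose by 1.01 (SE 0.0994, 95% interval 0.77 to 1.25, n = 2 libraries per group, adjusted p = 0.00065 in edgeR). The interval includes the threshold of 1, and Mfng was on its other side when the libraries were scaled by total count (0.81) or by the upper quartile (0.90). Mfng passed the adjusted p-value in all 15 alternatives with such a test, and both thresholds in 10 of them. Total-count scaling moved the median of all genes tested by -0.20.

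Rfng, radical fringe, lies on chromosome 11 from 120642060 to 120645521 (mm9, minus strand), with 2489 bases of exon. It had 862 and 356 reads in GSI and 851 and 328 reads upon washout. In CPM, the GSI libraries were at 26.9 and 24.4 and the washout libraries at 25.0 and 24.4, and the libraries of the groups overlapped. Its log2 fold change was -0.06 (SE 0.117, 95% interval -0.34 to 0.23, n = 2 libraries per group, adjusted p = 0.702 in edgeR). A decrease of over 0.34 or an increase of over 0.23 on the log2 scale lay outside this interval. Corrected for gene GC content and length, Rfng was at 0.25 (adjusted p = 0.104 in edgeR). The same correction with the replicate number as a block gave 0.25 as well, with an adjusted p of 0.0280 in edgeR.

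**Figure D1:**
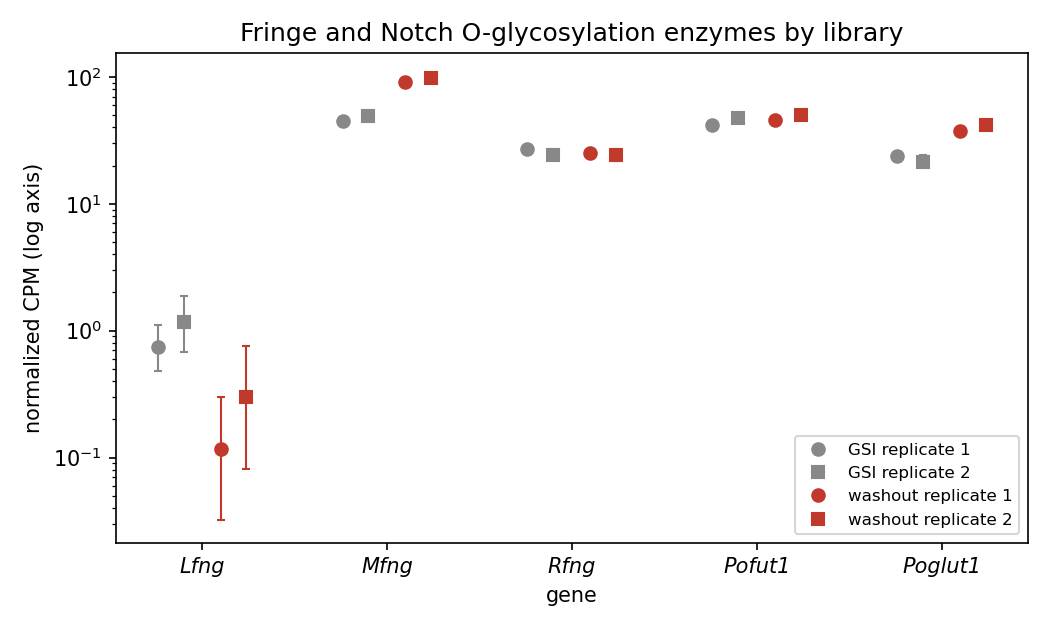
Level of each gene in the 4 libraries, in CPM scaled by TMM factors on a log axis; grey is GSI, red is washout, circles are replicate 1, squares replicate 2, and bars are exact 95% Poisson intervals, hidden by the symbol where narrow. Both washout libraries of Mfng, at 91.3 and 97.5 CPM, lie above both GSI libraries, at 44.8 and 49.1 CPM, whereas Lfng was at or below 1.16 CPM throughout.

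The makeup of the fringe reads differed between the groups. Mfng made up 61.8% (95% Clopper-Pearson interval 59.8 to 63.8) and 65.7% (62.8 to 68.6) of all fringe reads in GSI, and 78.4% (77.1 to 79.7) and 79.8% (77.8 to 81.7) upon washout. The part of Rfng was 37.2% and 32.7% in GSI, and 21.5% and 20.0% upon washout, although its own level did not pass the test. Lfng took 1.03% (0.664 to 1.54) and 1.56% (0.912 to 2.49) of fringe reads in GSI, and 0.101% (0.0275 to 0.258) and 0.243% (0.0664 to 0.622) upon washout. Per exon length, the log2 ratio of Mfng to Rfng was 0.54 and 0.82 in GSI and 1.68 and 1.81 upon washout. That ratio was higher in both washout libraries than in both GSI libraries, by 1.06 on average (pooled SD 0.152). With 2 libraries per group, an exact two-sided permutation test cannot go below p = 0.333, which is the value it gave.

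Pofut1, the O-fucose transferase of Notch, lies on chromosome 2 from 153067269 to 153095983 (mm9, plus strand), with 9912 bases of exon. It had 1330 and 695 reads in GSI and 1551 and 671 upon washout, or 41.5 and 47.6 CPM against 45.6 and 49.9 CPM. In both groups replicate 2 was the higher, and the ranges of the groups overlapped. For Pofut1 the log2 fold change was 0.10 (SE 0.115, 95% interval -0.18 to 0.38, n = 2 libraries per group, adjusted p = 0.50 in edgeR). Under total-count scaling this became -0.10. Corrected for GC content and length, Pofut1 was at 0.34 and passed the adjusted p-value (adjusted p = 0.0257 in edgeR), also with the replicate block added (0.34, adjusted p = 0.00154).

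Poglut1, the O-glucose transferase, lies on chromosome 16 from 38525221 to 38550340 (mm9, minus strand), with 4658 bases of exon. Its reads were 762 and 314 in GSI and 1264 and 561 upon washout. The levels of 23.8 and 21.5 CPM in GSI stood below the 37.1 and 41.7 CPM upon washout in every pairing of libraries, and the mean ratio was 1.74. Poglut1 rose by 0.79 on the log2 scale (SE 0.122, 95% interval 0.50 to 1.09, n = 2 libraries per group, adjusted p = 0.00275 in edgeR), which is under the threshold of 1. It passed the adjusted p-value in all 15 alternatives with such a test, at log2 fold changes from 0.59 to 0.88. Against Poglut1, the log2 ratio of Pofut1 per exon length was -0.29 and 0.06 in GSI and -0.79 and -0.83 upon washout, a difference of -0.70 (pooled SD 0.172, exact permutation p = 0.333).

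The libraries of the groups did not overlap for Lfng, Mfng and Poglut1, 3 of 5 members, whereas 77.3% of all genes tested had no overlap (38.2% with washout higher and 39.1% with washout lower). In order of level per kilobase of exon, the GSI libraries had Mfng first, with 15.8 and 17.3 CPM per kb, then Rfng with 10.8 and 9.80, Poglut1 with 5.11 and 4.62, Pofut1 with 4.19 and 4.80, and Lfng with 0.329 and 0.510. Pofut1 and Poglut1 overlapped in GSI and had no clear order there. Upon washout, Mfng reached 32.2 and 34.4 CPM per kb, Rfng 10.0 and 9.80, Poglut1 7.97 and 8.96, Pofut1 4.60 and 5.04, and Lfng 0.0515 and 0.130. Among the 10962 tested genes with a known length, the mean level of Mfng was at percentile 66.3 in GSI and 80.6 upon washout, and that of Lfng at 6.18 and 2.10. Rfng stayed near the middle, at percentile 51.5 and 50.4. Scaled by the longest coding transcript in place of all exons, Poglut1 (13.5 and 15.1 CPM per kb) was above Rfng (11.8 and 11.5) upon washout, so the order of this pair depends on which length is used.

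Notch1, the receptor gene with the most reads in each library, itself rose by 1.14 on the log2 scale (SE 0.156, adjusted p = 0.0018 in edgeR). Its levels in CPM were 505 and 636 in GSI against 1184 and 1332. Per kilobase of exon, Notch3 was above Notch1 in GSI (42.3 and 55.7 against 35.5 and 44.7 CPM per kb) and below it upon washout. By the longest coding transcript, Notch1 (53.3 and 67.0) was above Notch3 in GSI as well. Which receptor the enzymes modify was not measured. Within each library the members can be set against Notch1. Per exon length, the log2 ratio of Mfng to Notch1 was -1.17 and -1.37 in GSI and -1.37 and -1.45 upon washout, a difference of -0.14 (pooled SD 0.107, exact permutation p = 0.667). With the GC and length correction the log2 fold change was 1.79 for Notch1 and 1.26 for Mfng, which lie further apart than the uncorrected values. For this pair of genes, without the correction, GSI replicate 2 and washout replicate 1 were at the same value. Poglut1 had log2 ratios of -2.80 and -3.27 in GSI and -3.38 and -3.38 upon washout. Pofut1 went from -3.08 and -3.22 to -4.18 and -4.22, so that in each washout library there was less Pofut1 per Notch1 transcript than in either GSI library, by 1.05 on the log2 scale (pooled SD 0.0704, exact permutation p = 0.333, the smallest this design allows). The ratio of Lfng to Notch1 went from -6.76 and -6.45 to -10.66 and -9.49. All the ratios to Notch1 except that of Lfng, and the ratio of Mfng to Rfng, were added after the data were seen.

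**Figure D2:**
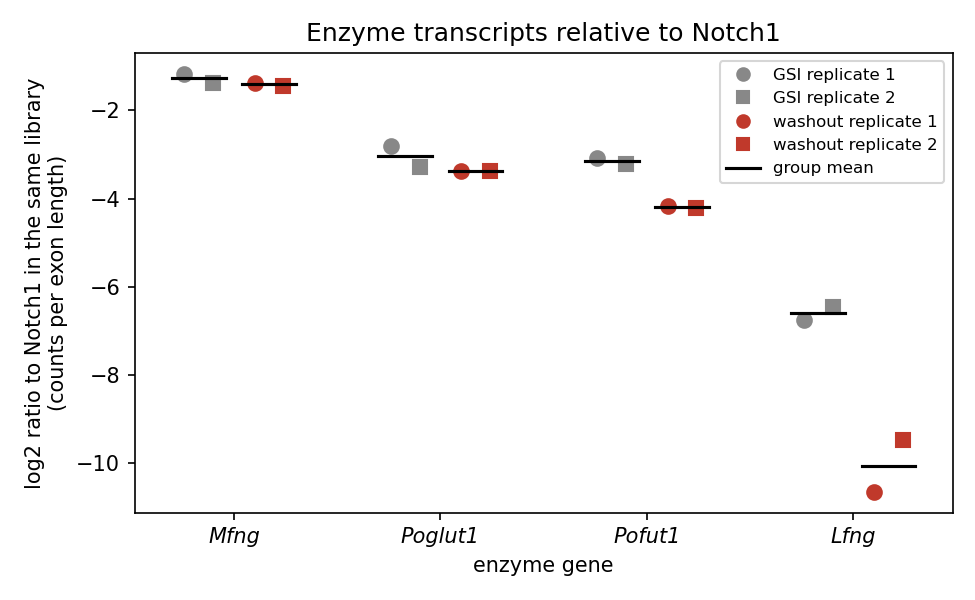
Log2 ratio of each enzyme's transcripts to those of Notch1 in the same library, both as counts per exon length; grey is GSI, red is washout, circles are replicate 1, squares replicate 2, and lines are group means. The group means differ by -0.14 for Mfng, -0.35 for Poglut1, -1.05 for Pofut1 and -3.47 for Lfng.

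Among the other substrates, the log2 fold change was -0.36 for Notch2 (adjusted p = 0.0178 in edgeR), 0.14 for Notch3 (0.499), -0.98 for Notch4 (0.0417) and -0.89 for the ligand Jag2 (0.0100). Notch4 did not pass in DESeq2 (adjusted p = 0.0802), with the GC and length correction (-0.40, adjusted p = 0.324 in edgeR), or without either GSI library or washout replicate 2. Jag2 did not pass with that correction (-0.48, adjusted p = 0.0950 in edgeR) or without GSI replicate 1 (adjusted p = 0.0611). Notch2 was at 0.11 with the correction and did not pass without either GSI library or without washout replicate 2. Dll1, Dll3, Dll4 and Jag1 had too few reads to be tested.

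The wider set of genes for Notch glycosylation held 32 genes, all in the count table. Gxylt2 was at 0 in every library and St3gal6 had 1 read in all, and the other 30 were tested. Of these, 7 rose and 6 fell by the adjusted p-value, beside 27.0% and 25.4% of all genes tested. With the replicate number as a block, 10 rose and 10 fell, beside 4243 and 4216 of the 12266 genes tested. Past both thresholds were 0 that rose and 2 that fell. The 0 held in edgeR at an unadjusted p under 0.05 and in DESeq2, where the highest value was 0.99 for Kdelc1. Kdelc1 was past both thresholds with no filter (1.004) and without washout replicate 1 (1.009). The median log2 fold change of the 30 genes was 0.04, beside -0.01 for all genes tested, and the libraries of the groups did not overlap for 20 of them, beside 77.3% of all genes tested.

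Enzymes of the O-glucose chain included the largest rises of the set. Kdelc1 (POGLUT2), a relative of POGLUT1 that also places O-glucose on Notch, had levels in CPM of 18.6 and 19.0 in GSI and 35.9 and 37.6 upon washout, and rose by 0.97 on the log2 scale (adjusted p = 0.00098 in edgeR). Of the 7 tested genes of O-glucose and xylose, 3 rose and 0 fell (0 also at an unadjusted p under 0.05 in edgeR, and in DESeq2), beside 27.0% and 25.4% of all genes, and the lowest was Ugp2, an enzyme of UDP-glucose supply, at -0.21 (adjusted p = 0.296). Ugp2 did pass the adjusted p-value with the replicate block (-0.21), with the GC and length correction (-0.38) and without washout replicate 1 (-0.41). The others that rose were Xxylt1, the xylosyltransferase that ends the chain (0.82, adjusted p = 0.00315), and Kdelc2 (POGLUT3), with 0.50 (adjusted p = 0.0175), both named after their values were seen. At the same time the log2 fold change of Gxylt1, which adds the first xylose, was -0.11 (adjusted p = 0.450). Kdelc2 did not pass under total-count scaling (0.30, adjusted p = 0.0916 in edgeR), nor without either GSI library or without washout replicate 1.

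Genes that supply fucose were mixed. Fuk, the kinase that salvages free fucose, was at 24.8 and 24.7 CPM in the GSI libraries and at 11.1 and 11.9 CPM in the washout libraries. Its log2 fold change was -1.11 (adjusted p = 0.00104 in edgeR). With the GC and length correction Fuk was at -0.73, with and without the replicate block. There it passed the adjusted p-value but not the threshold of -1. Gmds, the first enzyme of the route from GDP-mannose, was the highest of these 6 genes, at 4.03 and 4.45 CPM before and 6.05 and 7.59 CPM after washout, with a log2 fold change of 0.68 (adjusted p = 0.0467). The adjusted p-value of Gmds was 0.0890 in DESeq2 and 0.121 under total-count scaling, and it was above 0.05 whichever library was left out. Neither of the 2 other O-fucose genes passed the test, with 0.20 for Pofut2 and -0.02 for B3glct, which serve thrombospondin repeats and not Notch. Pofut2 did pass the adjusted p-value in 2 alternatives, at 0.43 and 0.45.

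Genes for extracellular O-GlcNAc and its donor had 1 that rose and 3 that fell among 7, beside 27.0% and 25.4% of all genes. The lowest was Eogt, the transferase that puts O-GlcNAc on EGF repeats, at 8.78 and 5.89 CPM before and 4.38 and 3.35 CPM after washout, with a log2 fold change of -0.92 (adjusted p = 0.0334 in edgeR). Without GSI replicate 1 the value for Eogt was -0.59 (adjusted p = 0.214), and without washout replicate 2 it was -0.75 (adjusted p = 0.0860). The highest was Slc35a3, a Golgi transporter of UDP-GlcNAc, the sugar donor of the fringes, with 0.47 (adjusted p = 0.0642). In DESeq2, with no filter, with the replicate block, with the GC and length correction and without washout replicate 2, Slc35a3 passed the adjusted p-value.

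Beyond the fringe step, galactose and sialic acid can be added. B4galt2, a galactosyltransferase with 40 and 29 reads in GSI and 20 and 6 upon washout, had the lowest value of the set, -1.54 (adjusted p = 0.0224 in edgeR). In DESeq2 its adjusted p-value was 0.0781, and with the GC and length correction it was 0.0570. It was also above 0.05 without GSI replicate 2 and without either washout library. B4galt1, which adds galactose to the fringe product and is named after its values were seen, was at 42.6 and 38.2 CPM before and 22.6 and 22.3 CPM after washout and fell (-0.85, adjusted p = 0.00163). The highest of this group was the sialyltransferase St3gal3, with 0.57 (adjusted p = 0.0115). Of the 8 genes of this group that were tested, 2 rose and 2 fell, beside the same 27.0% and 25.4%.

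**Figure D3:**
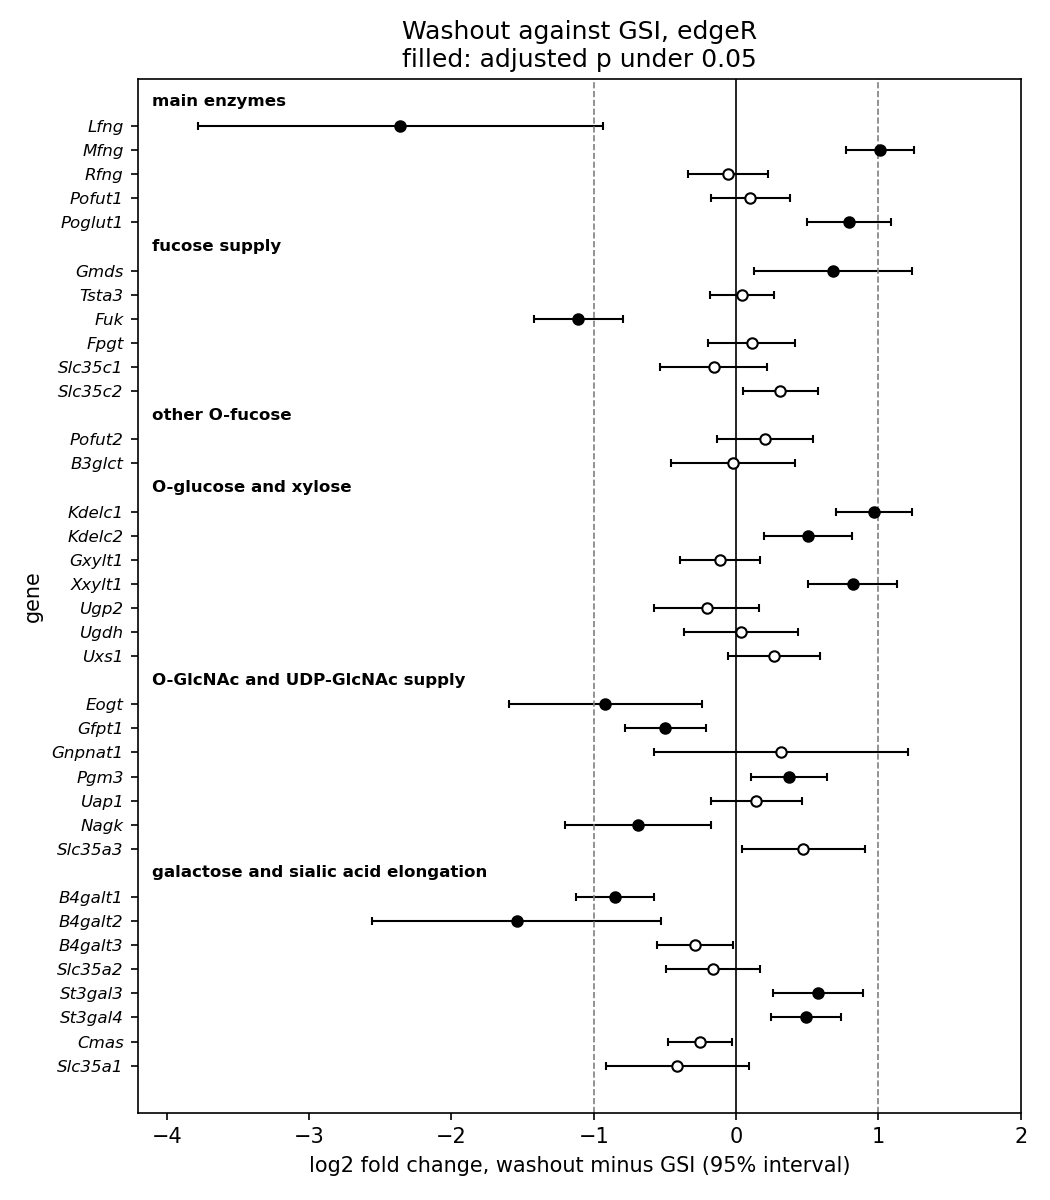
Log2 fold change of washout against GSI for the 5 enzymes and the 30 tested genes of the wider set, with 95% intervals from edgeR; filled points have an adjusted p under 0.05 and dashed lines mark 1 and -1. Mfng (1.01) and Kdelc1 (0.97) lie highest and Lfng (-2.36) and B4galt2 (-1.54) lowest.

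No annotated gene overlaps a member. Rfng and Gps1, a subunit of the COP9 signalosome, start 64 bases apart on opposite strands, and Gps1 rose by 0.77 (adjusted p = 0.00172 in edgeR) while Rfng did not pass the test. Pofut1 and Plagl2 are 106 bases apart on opposite strands, and the log2 fold change of Plagl2 was -0.34 (adjusted p = 0.128). The neighbors of Lfng were both lower upon washout. Ttyh3, which is 5042 bases downstream, fell by 0.70 (adjusted p = 0.00235), and Grifin, which is 42269 bases upstream, fell by 1.61 (adjusted p = 0.0340) from 81 and 16 reads to 23 and 7. On either side of Mfng, the log2 fold change was 0.62 for Elfn2 (adjusted p = 0.0126) and -0.46 for Card10 (adjusted p = 0.113), the nearer of the pair at 1662 bases. Tmem39a, at 8470 bases from Poglut1, had 0.27 (adjusted p = 0.0995).

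The genes most like each member were found by the distance between their log2 CPM in the 4 libraries, after adding 0.5 CPM and subtracting the mean of each gene. Closest to Lfng were Slc5a10, Kel and Fndc9, at distances from 0.0515 to 0.0654, and 61 genes lay within 0.2. The 0.5 CPM added was above both washout levels of Lfng (0.117 and 0.298 CPM), which shrinks its differences between libraries in this measure. The log2 fold changes of these nearest genes ran from -1.595 (Slc5a10) to -1.171 (Fndc9), against -2.36 for Lfng. Their closeness therefore does not mean that they changed as much as Lfng. Nearest to Mfng were Rangrf, Hax1 and Dnase1, with 349 genes within 0.2, and nearest to Poglut1 were Cmtr2, Mrpl2 and Mri1, with 319. The closest to Rfng were Qpctl, Ppm1a and Chd5, and to Pofut1 Xpo6, Actn1 and Phrf1, with 1058 and 917 genes within 0.2. With 4 libraries such profiles have little detail, and many genes share them.

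The members also differed in how far the result depended on the processing, as the plot of all alternatives shows. Poglut1 passed the adjusted p-value, at values between 0.59 and 0.88, in each alternative with such a test. Lfng ranged from -2.91 to -1.61 and passed the adjusted p-value in 11 of 14 such alternatives. Rfng ranged from -0.26 to 0.25 and Pofut1 from -0.10 to 0.34, both on either side of 0.

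**Figure D4:**
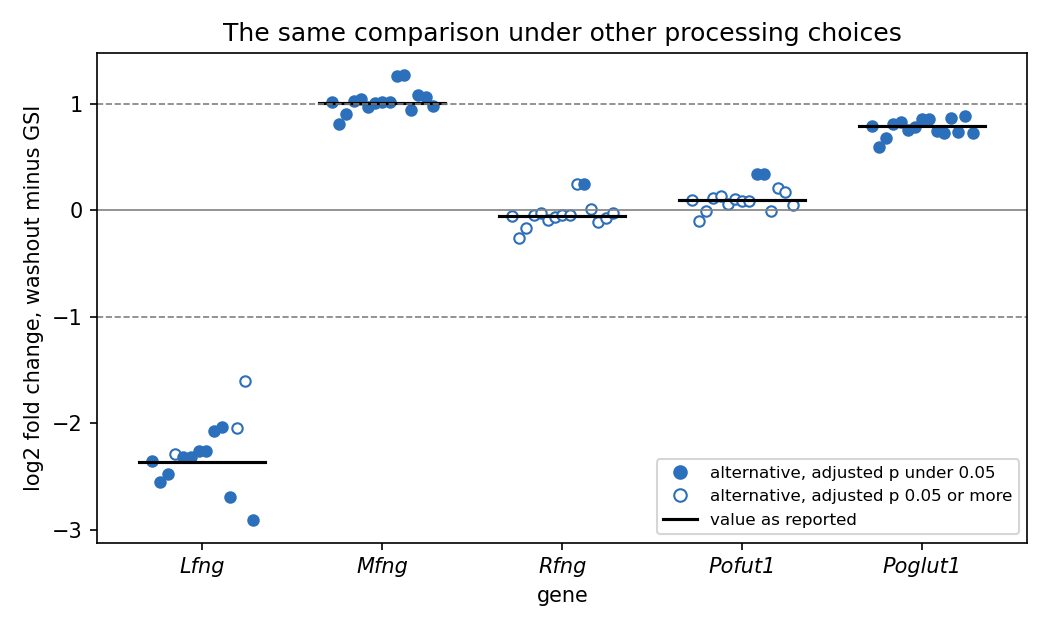
Log2 fold change of washout against GSI for each member under each alternative that gives a test against 0; filled points have an adjusted p under 0.05, the black line is the value reported above, and dashed lines mark 1 and -1. Mfng lies between 0.81 and 1.27, Poglut1 between 0.59 and 0.88, and the points of Rfng and Pofut1 fall on both sides of 0.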

How the data were processed

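RNA-Seq of total RNA (stranded kit with removal of ribosomal RNA) was analysed in 4 libraries. The authors trimmed the reads with trimGalore 0.6.5, aligned them to mm9 with HISAT2 2.2.1 and counted reads per gene with summarizeOverlaps, and they deposited raw counts per gene. The strand setting and overlap mode are not given in the sources used here. Total counts ran from 13716199 to 36364200 per library, and 3 counts are 0.0881 to 0.223 CPM. Intervals cover counting error only.

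Counts were tested on the whole table with edgeR 4.0.16 in R 4.3.3 (filterByExpr, TMM, quasi-likelihood test, Benjamini-Hochberg adjustment), 2 libraries per group without covariates. The biological coefficient of variation was 0.121, and replicates differed by more than sampling noise (chi-square per degree of freedom 18.2 in GSI and 28.5 in washout). Positions and exon lengths came from GENCODE vM1 on mm9, in which 20641 of the 24391 symbols matched a single gene. Alternatives were DESeq2 1.42.0, 3 other scalings, 2 other filters, thinning, a replicate block, glmTreat, a GC and length correction, and leaving out each library. Scripts were tested on simulated data. The members and lists were chosen with earlier results of these data known. The genes named are the members, the wider-set genes past both thresholds, the highest and lowest of each subgroup, the tested receptors and ligands, the nearest genes in pattern, and the neighbors on the chromosome.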

Additional observations from a re-analysis of the deposited data

How the results depend on the processing

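Depth limited Lfng most, since its washout libraries held 4 reads each. With at least 10 counts in every library Lfng could not be tested, and after thinning its ratio to Notch1 could not be computed because a washout library was left with 0 reads. Poglut1 kept its direction in all alternatives and passed the adjusted p-value in all except glmTreat, which tests against the threshold of 1. Groups of 2 libraries allow no outlier test, and an exact permutation test cannot go below 0.333. A gene at 1 on the log2 scale, as Mfng is, moves across that threshold with small changes in scaling. Except where a setting leaves out genes or libraries, the cause of a change was not tested.

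Lfng was -2.29 in DESeq2 (adjusted p = 0.0696) and -2.36 in glmTreat, edgeR's test against the threshold of 1 itself (adjusted p = 0.159). In neither was its adjusted p-value below 0.05. With 1 library left out Lfng lay between -2.91 and -1.61. Mfng was 0.81 under total-count scaling, 0.90 under upper-quartile scaling, 0.97 with at least 10 counts in every library and 1.01 without passing in glmTreat, and 0.94 to 1.09 with 1 library left out. Rfng turned to 0.25 with the GC and length correction, with and without the replicate block, and lay between -0.11 and 0.013 with 1 library left out, the latter without GSI replicate 1. Pofut1 turned to -0.10 under total-count scaling and -0.011 under upper-quartile scaling, and lay between -0.0041 (without GSI replicate 1) and 0.21 with 1 library left out. Members that rose by the adjusted p-value numbered 2, but 0 in glmTreat and 4 with the GC and length correction and the replicate block. The 1 that fell became 0 in DESeq2, in glmTreat, with at least 10 counts in every library and, with 1 library left out, 0 to 1. Past both thresholds were 2 members, but 1 under total-count scaling, upper-quartile scaling and DESeq2, 0 with at least 10 counts and in glmTreat, and 1 whichever library was left out. At an unadjusted p under 0.05, glmTreat had 1 member, Lfng, and 1 gene of the wider set, B4galt2.

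Over all genes, 3315 rose and 3120 fell by the adjusted p-value. In glmTreat these counts were 308 and 501, and with 1 library left out 2202 to 3334 and 2028 to 2815. Past both thresholds were 950 higher and 1437 lower, and with total-count scaling 586 and 1963. The wider set had 7 that rose (4 under total-count scaling, 0 in glmTreat, 2 to 7 with 1 library left out). It had 6 that fell (10 with the replicate block, with and without thinning, 0 in glmTreat, 3 to 6 with 1 library left out). Past both thresholds were 2 (4 under total-count scaling, 1 in DESeq2, with at least 10 counts and with the GC and length correction plus block, 0 with the correction alone and in glmTreat, 1 to 3 with 1 library left out). The share of Lfng among fringe reads per length was 1.22% and 1.85% in GSI and 0.122% and 0.294% upon washout, a difference of -1.33 percentage points, or -0.965 by the longest coding transcript. Among other named genes, B3glct turned to 0.014 without a filter and lay between -0.22 and 0.19 with 1 library left out, above 0 without GSI replicate 1 and without washout replicate 2. Notch2 turned to 0.11 with the GC and length correction, with and without the block. Notch3 was -0.059 under total-count scaling, between -0.052 (without GSI replicate 1) and 0.36 with 1 library left out, and 0.70 with the correction (adjusted p = 0.00374 in edgeR).

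The labels do not say whether same-numbered libraries were paired, 2 pairs cannot show a pairing, and the main fit left the replicate number out. The deviations of same-numbered libraries correlated at 0.484 across genes, and replicate 1 was the deeper library in both groups. With the replicate number as a block, 4243 genes rose and 4216 fell by the adjusted p-value. Whether pairing or depth lies behind the correlation was not tested. With the replicate number as a block the log2 fold changes were -2.32 for Lfng (adjusted p = 0.00055 in edgeR), 1.01 for Mfng, -0.06 for Rfng, 0.10 for Pofut1 and 0.78 for Poglut1, and no member changed its call.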
